A study of Mus musculus with 8 samples.

Results

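Upp2 encodes the uridine phosphorylase of liver, and it is described here with the enzymes that salvage, build and break down pyrimidines. Members were all probe sets (groups of short oligonucleotides that together report 1 transcript) whose platform annotation gave exactly 1 gene symbol, where that symbol was Upp2, Upp1, Uck1, Uck2, Uprt, Cda, Dpyd, Dpys, Upb1 or Umps. The rule found 23 of 45037 probe sets, for 9 of the 10 listed genes. Among the 18193 genes with a probe set of their own, Uprt, a relative of uracil phosphoribosyltransferases, had none. Upp2 was put first because its signal differed between the genotypes in these same arrays, so its difference is described here without a test.

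RNA was profiled in the livers of 8 C57BL/6 males, all 92 to 101 days old. The 4 mice of genotype MTAP+/- are heterozygous for Mtap, with 1 altered copy, and the 4 mice of genotype MTAP+/+ are wild-type. Each liver was measured on 1 array. The comparison asks which liver transcripts differ when 1 copy of Mtap is altered. Mtap encodes methylthioadenosine phosphorylase, which cleaves a by-product of polyamine synthesis so that methionine and adenine can be recovered. How the altered allele was made, and whether the mice were littermates or were sampled together, is not given in the sources used here. P-values therefore set the genotypes against the spread among these 8 livers only.

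Uridine can be built into RNA again or broken down, and liver is a main site of both. Uridine phosphorylases cleave uridine to uracil, while uridine-cytidine kinases return uridine and cytidine to the nucleotide pool. Uracil is then reduced, opened and cleaved in turn by the enzymes of Dpyd, Dpys and Upb1, which leaves beta-alanine. New uridine nucleotides come from a separate synthetic route that ends with the enzyme of Umps.

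Upp2 has 2 start sites in RefSeq (build GRCm38.p6), 187850 bases apart on chr2. Both windows are shown because the gene with the largest difference among the members can be transcribed from either, and the arrays were not used to tell which. Each runs from 250 bases before the start site to 50 bases after it, on the + strand. Capitals mark matches, on either strand, to TATAAA (the TATA box), AGGTCA (the half-site that nuclear receptors such as the REV-ERB and ROR factors bind), CACGTG (the E-box of the clock activators) and TTATGNAA (the D-box bound by DBP and NFIL3).
Upp2 start site 1, chr2:58567084-58567383: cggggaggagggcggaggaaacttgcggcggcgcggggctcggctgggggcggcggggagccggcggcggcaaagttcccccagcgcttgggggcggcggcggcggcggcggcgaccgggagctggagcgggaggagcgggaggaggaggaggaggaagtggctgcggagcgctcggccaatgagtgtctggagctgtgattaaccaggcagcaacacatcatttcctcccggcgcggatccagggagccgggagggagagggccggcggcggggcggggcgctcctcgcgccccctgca
Upp2 start site 2, chr2:58754934-58755233: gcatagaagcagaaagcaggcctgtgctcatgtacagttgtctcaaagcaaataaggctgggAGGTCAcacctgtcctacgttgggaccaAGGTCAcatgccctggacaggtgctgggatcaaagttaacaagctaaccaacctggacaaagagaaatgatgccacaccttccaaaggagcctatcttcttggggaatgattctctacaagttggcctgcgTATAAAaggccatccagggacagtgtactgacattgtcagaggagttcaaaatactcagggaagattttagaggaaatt

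The windows differ in composition. The first held 75.3% G and C with 37 CG pairs, and the second 47% with 2 CG pairs, where the medians over 32841 RefSeq promoter windows of the same length were 52.7% and 7. The second window has TATAAA from base -29 and AGGTCA from bases -188 and -160, counted back from the start site. TATAAA is found in 13.6% of all windows and AGGTCA in 16.3%. Neither Upp2 window holds the letters of the E-box (7.15% of all windows) or the D-box (3.39%). Of the other 11 windows of members, AGGTCA occurs on the opposite strand in 1 of the 3 of Upp1 and in that of Uck2, there at 2 places, and TATAAA on the same strand in that of Umps. These matches describe letters only.

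Before the results, the arrays themselves were compared. All values are log2 signals made with RMA, a method that corrects background, equalises arrays and summarises probes, so 1 unit is a doubling, and changes are MTAP+/- minus MTAP+/+. Array medians lay between 3.91 and 3.97. All 4 Mtap probe sets were lower in every MTAP+/- liver, at 32.2% to 57.6% of the wild-type mean. On the first principal component (28.3% of the variance), wild-type replicate 4 scored with heterozygous replicates 1, 3 and 4 (-24.9 to -23.4), while heterozygous replicate 2 (35.6) scored with wild-type replicates 1 and 2 (25.6 and 31.3). On the second component (22.0%) heterozygous replicate 2 stood apart, and its 3' minus 5' control signal, a sign of RNA integrity, was 0.713 where the other heterozygous arrays had 1.08 to 1.12 and the wild-type arrays 0.880 to 1.04. The hepatocyte markers Alb, Ttr, Apoa1, Cps1, Tat and Hpd had signals from 11.02 to 14.52, and the kidney tubule markers Umod, Slc34a1 and Slc12a1 from 2.17 to 3.31. For none of 9 marker lists fixed for hepatocytes, Kupffer, endothelial, stellate, cholangiocyte, lymphoid, red, kidney tubule and dividing cells did the mean signal separate the genotypes. Single genes were apart at only 4.64%, so this says little about cell composition. Of the Kupffer cell markers 5 of 6 were higher, all but Clec4f (-0.27). The changes were 0.78 for Adgre1, 0.72 for Marco, 0.50 for Timd4, 0.42 for Cd5l and 0.05 for Vsig4. The list means of the Kupffer cell markers were 7.69 to 8.57 in MTAP+/- and 7.55 to 7.99 in MTAP+/+ livers. Also higher were 5 of 6 hepatocyte, 4 of 5 stellate, 3 of 5 endothelial and 3 of 3 lymphoid markers. Fewer were higher among cholangiocyte (1 of 4), red (1 of 2), kidney tubule (0 of 3) and dividing cell (1 of 3) markers. The part of Kupffer cells in the results was not tested.

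Upp2 was about 3-fold higher in MTAP+/- liver at both of its bright probe sets. On 1451548_at the MTAP+/- signals were 9.98, 9.88, 10.35 and 9.96, and the MTAP+/+ signals were 7.92, 8.20, 8.77 and 8.77, each in the order of replicates 1 to 4. The groups did not overlap, and the gap of 1.11 between the lowest heterozygous and the highest wild-type liver was wider than the range within either group (0.47 in heterozygous and 0.85 in wild-type). The means were 10.04 ± 0.21 (SD, n = 4) and 8.42 ± 0.43 (SD, n = 4). The log2 change was 1.62 ± 0.20 (SE), a 3.08-fold difference with a 95% interval of 2.28 to 4.17. The choice of Upp2 on this contrast can make its size too large, so the interval and the gap are descriptions only. In bulk liver, more cells of a type and more RNA per cell cannot be told apart.

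The second bright probe set, 1424969_s_at, gave the same picture. Its signals were 9.85, 9.79, 10.12 and 9.89 in MTAP+/- and 7.71, 8.18, 8.59 and 8.70 in MTAP+/+ livers. The change was 1.62 ± 0.20 (SE), or 3.07-fold. Both probe sets are annotated from the same transcript record and may share sequence, so they are not separate evidence. Within genotypes they moved together, with a correlation of 0.97 between their deviations from the genotype means over the 8 livers.

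The third Upp2 probe set, 1460059_at, was dim and less separated. It read 4.27, 4.85, 5.24 and 4.93 in MTAP+/- and 3.88, 3.68, 4.84 and 3.90 in MTAP+/+ livers. Wild-type replicate 3 lay above heterozygous replicate 1, so the groups overlapped, and the change was 0.75 ± 0.26 (SE). RMA compresses differences of dim probe sets, so this value may be too small. The groups thus stood apart at 2 of the 3 Upp2 probe sets, where 4.35% of all 45037 probe sets did. Upp2 was chosen on this contrast, so nothing is read from that count.

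Wild-type livers covered a wider range of Upp2 signals than heterozygous ones on the bright probe sets, a difference in spread that was not tested. Wild-type replicates 3 and 4 were both at 8.77 on 1451548_at, although of these only replicate 4 scored with heterozygous replicates 1, 3 and 4 on the first component, and heterozygous replicate 2, on the wild-type side there, was at 9.88. Without wild-type replicate 4 the change of 1451548_at was 1.74, and without heterozygous replicate 2 it was 1.68. With neither of these arrays, a setting added after the data were seen, it was 1.80.

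**Figure D1:**
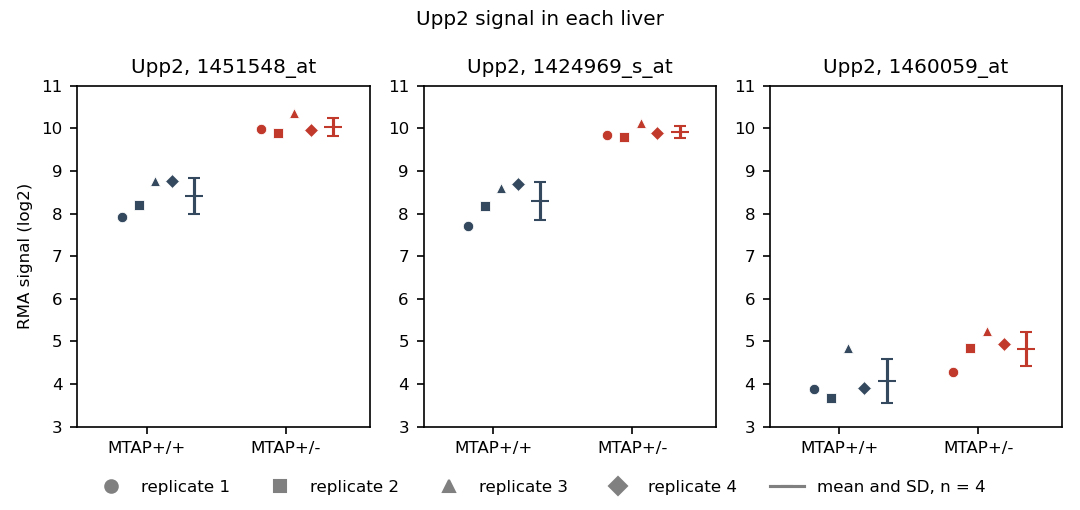
RMA log2 signal of the 3 Upp2 probe sets in each liver, with symbols for replicates and bars for the mean ± SD of 4 livers. The MTAP+/- and MTAP+/+ livers do not overlap on the left and middle panels, where all heterozygous signals are at 9.79 or above and all wild-type signals at 8.77 or below, and they overlap on the dim probe set at the right.

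Upp1, the other uridine phosphorylase, found in many tissues, did not pass the test. Its 1 probe set read 5.60, 4.83, 5.08 and 5.38 in MTAP+/- and 5.30, 5.16, 5.12 and 4.89 in MTAP+/+ livers. The wild-type values fell inside the heterozygous range. The change was 0.10 ± 0.16 (SE), with a 95% interval of -0.26 to 0.46 (adjusted p = 0.910 by limma). That interval ends below the change of either bright Upp2 probe set. The difference between both genes' changes was not tested, and their levels cannot be compared, since probe sets differ in brightness.

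No member other than Upp2 passed the threshold of an adjusted p under 0.05. Limma, a linear model fitted across all probe sets, called 0 of the 20 other member probe sets, where it called 0.0355% of all probe sets (16 of 45037). At an unadjusted p under 0.05 it listed 3 of the 20, against 8.41% of all probe sets. The groups did not overlap at 1 of the 20, against the 4.35% given above. The median change of the 20 was -0.05, and that of all probe sets was -0.01. Several of the 20 report the same gene, so they are not 20 separate measurements.

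Uck1 was the member with separated groups. It encodes a uridine-cytidine kinase, which competes with uridine phosphorylase for uridine. The signals were 7.24, 6.78, 7.22 and 6.75 in MTAP+/- and 8.17, 7.64, 7.45 and 7.46 in MTAP+/+ livers. Every heterozygous liver was below every wild-type liver, by a gap of 0.20 that was smaller than the range within either group (0.49 and 0.73). The change was -0.68 ± 0.18 (SE), or 62.4% of the wild-type level (95% interval of the log2 change -1.08 to -0.28, unadjusted p = 0.00345, adjusted p = 0.345 by limma). Wild-type replicate 1 was the highest, and without it the change was -0.52.

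Uck2, the second uridine-cytidine kinase, had 6 probe sets and no clear difference. The brightest, 1448604_at, read 6.16, 6.30, 6.06 and 6.22 in MTAP+/- and 6.16, 6.10, 5.95 and 6.01 in MTAP+/+ livers. Its change was 0.13 ± 0.09 (SE), with a 95% interval of -0.08 to 0.34 (adjusted p = 0.757 by limma). The other 5 changed by -0.08 to 0.20, of both signs. All but the brightest lay at or below 5.35 in every liver.

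Cda, which deaminates cytidine to uridine, differed more among livers of 1 genotype than between genotypes. It read 6.61, 6.90, 6.03 and 6.68 in MTAP+/- and 6.46, 6.58, 6.64 and 7.04 in MTAP+/+ livers. The change was -0.12 ± 0.19 (SE, 95% interval -0.53 to 0.29, adjusted p = 0.905 by limma). Heterozygous replicate 3 was the lowest of all, and without it the change turned to 0.05.

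**Figure D2:**
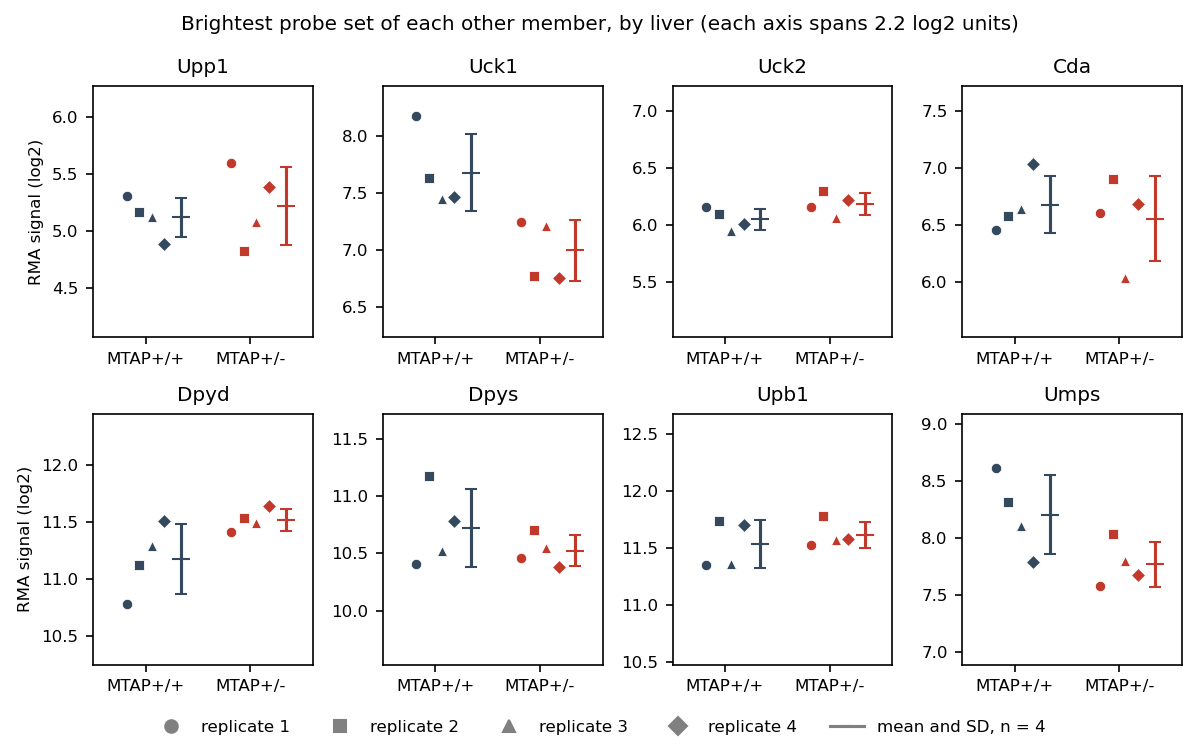
RMA log2 signal in each liver of the brightest probe set of the 8 members other than Upp2, with symbols for replicates and bars for the mean ± SD of 4 livers. Each axis spans 2.2 log2 units, and Uck1 is the 1 panel in which the MTAP+/- and MTAP+/+ livers do not overlap.

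Of the enzymes that break uracil and thymine down, Dpyd had the largest change. It encodes dihydropyrimidine dehydrogenase, the first and rate-limiting step. On its brightest probe set, 1427946_s_at, the signals were 11.41, 11.53, 11.49 and 11.64 in MTAP+/- and 10.79, 11.12, 11.29 and 11.51 in MTAP+/+ livers. Wild-type replicate 4 reached into the heterozygous range, while the other 3 wild-type livers were below it. The change was 0.34 ± 0.14 (SE), or 1.27-fold (95% interval of the log2 change 0.02 to 0.66, unadjusted p = 0.0377, adjusted p = 0.561 by limma).

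A second Dpyd probe set, 1427945_at, changed by 0.30 ± 0.15 (SE, adjusted p = 0.636 by limma), and the third was near the lowest signals of the arrays. Without wild-type replicate 4 the groups no longer overlapped at 1427946_s_at and 1427945_at. That liver was the one that reached into the heterozygous range, and without it 8.53% of all probe sets were apart. The change of 1427946_s_at was then 0.45, and it was 0.21 without wild-type replicate 1.

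The next 2 steps did not pass either. Dpys, whose product dihydropyrimidinase opens the reduced ring, read 10.46, 10.71, 10.55 and 10.38 in MTAP+/- and 10.41, 11.18, 10.52 and 10.78 in MTAP+/+ livers on 1436291_a_at. The change was -0.20 ± 0.16 (SE, 95% interval -0.55 to 0.16, adjusted p = 0.794 by limma). Its other probe sets changed by -0.16 and 0.07, and the last of these, 1425689_at, read 5.54 in heterozygous replicate 2 and 6.54 to 6.66 in the other 3 heterozygous livers.

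Upb1, the beta-ureidopropionase that releases beta-alanine, was the most even member of the breakdown route. It read 11.52, 11.78, 11.57 and 11.58 in MTAP+/- and 11.35, 11.74, 11.36 and 11.70 in MTAP+/+ livers. Its change was 0.08 ± 0.12 (SE), with a 95% interval of -0.19 to 0.34 (adjusted p = 0.907 by limma). So of the 3 breakdown enzymes none passed, and their brightest probe sets did not share a sign.

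Umps, which makes UMP in the last steps of new synthesis, had its largest change on its brightest probe set. On 1455832_a_at the signals were 7.58, 8.03, 7.80 and 7.67 in MTAP+/- and 8.61, 8.31, 8.10 and 7.79 in MTAP+/+ livers. Wild-type replicate 4 again lay among the heterozygous livers, and the other 3 wild-type livers were above all of them. The change was -0.43 ± 0.17 (SE), or 74.1% of the wild-type level (95% interval of the log2 change -0.81 to -0.06, unadjusted p = 0.0281, adjusted p = 0.522 by limma). The other 3 probe sets changed by -0.14, -0.09 and -0.04.

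Leaving out wild-type replicate 4 alone, the groups were apart at 4 of the 20 other member probe sets (Uck1, 2 of Dpyd and 1 of Umps), against 8.53% of all probe sets under the same setting. Leaving out heterozygous replicate 2 as well, they were apart at 5 of 20, the fifth being Dpys 1425689_at, against 17.6% of all. Both arrays had scored with the other genotype on the first component, so leaving them out sets the genotypes further apart by choice. With both out, limma called 430 probe sets in all and still 0 of the 20 members. The smallest adjusted p among them was then 0.0753, for Umps 1455832_a_at at a change of -0.66.

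**Figure D3:**
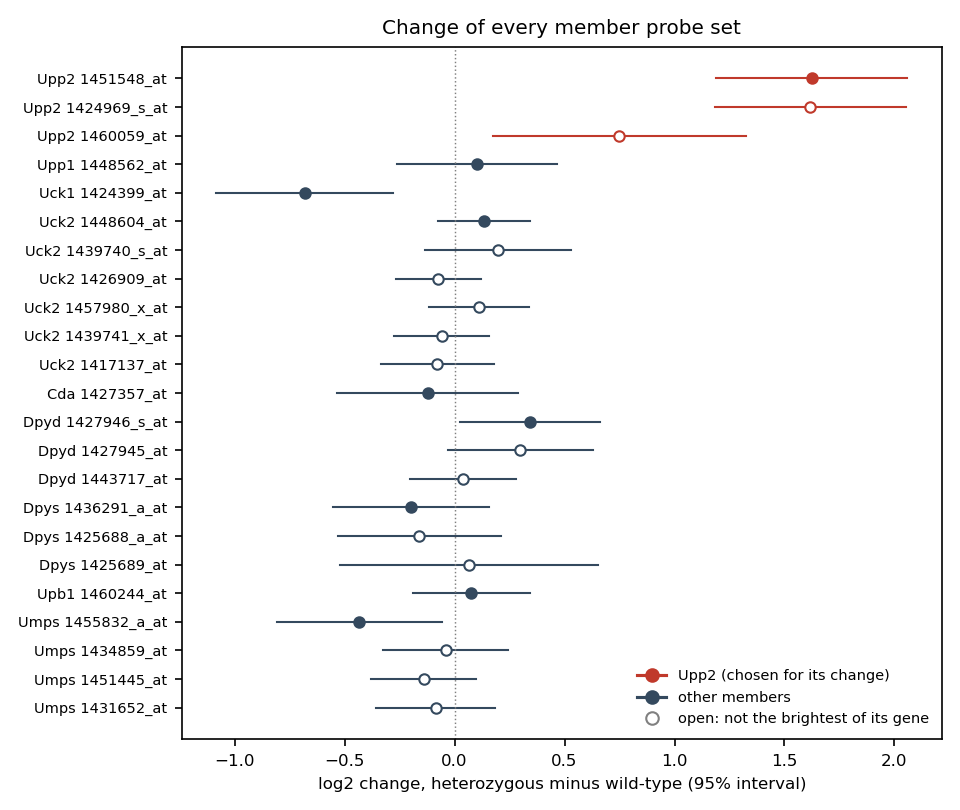
Log2 change (MTAP+/- minus MTAP+/+) of all 23 member probe sets with its 95% interval from limma, not adjusted for the number of probe sets. Upp2 was chosen on this contrast, so its intervals are descriptions only. Filled points are the brightest probe set of a gene; the 3 Upp2 probe sets at the top lie between 0.75 and 1.62, and the 20 others between -0.68 and 0.34.

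Genes were also ranked by how closely they followed Upp2 within genotypes. Few of the genes ranked are members, so extremes from outside the route were likely in advance. Likeness was the Pearson correlation, over the 8 livers, of deviations from the genotype mean, between Upp2 1451548_at and 3680 genes with a mean of at least 6 and a within-genotype SD of at least 0.2. All points share the arrays and their normalisation, and the values are descriptions. Highest were Hadhb, a subunit of the mitochondrial enzyme of fatty acid oxidation (0.98), Bzw1 (0.96), Vma21, an assembly factor of the proton pump of lysosomes (0.95), Enpp5 (0.95), Ap3m1, an adaptor subunit for vesicle transport (0.94), and Kmo, an enzyme of tryptophan breakdown (0.94). Lowest were Tssc4 (-0.99), Klhdc2 (-0.99), Ndufaf8, a complex I assembly factor (-0.98), and Yeats4 (-0.98). Among these 10 genes the changes between genotypes ranged from -0.61 in Tssc4 to 0.41 in Bzw1. Over all 3680 genes the middle 90% of correlations lay between -0.76 and 0.74, so high values of either sign are common with 8 livers.

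On the same measure, the brightest probe set of Dpyd was at 0.76, that of Umps at -0.74 and that of Uck2 at -0.88. Uck2 varied little within genotypes, with an SD of 0.099 in MTAP+/- and 0.093 in MTAP+/+ livers. It was thus under the SD limit of 0.2 and not among the 3680 genes. Wild-type replicate 1 had the lowest Upp2 and Dpyd signals and the highest Umps signal, and wild-type replicates 3 and 4 lay on the opposite side in all of these. The other probe sets of these genes did not all share the value of the brightest, with 0.59 and 0.08 for Dpyd, -0.49, 0.36 and -0.16 for Umps, and -0.31 to 0.63 for the 5 of Uck2. Upp1 (-0.37), Uck1 (-0.47), Cda (0.02), Dpys (0.004) and Upb1 (0.03) lay well inside the range of most genes. Of these, Upp1 was under the limit of the mean and Upb1 under that of the SD, so neither was among the genes that gave the range.

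**Figure D4:**
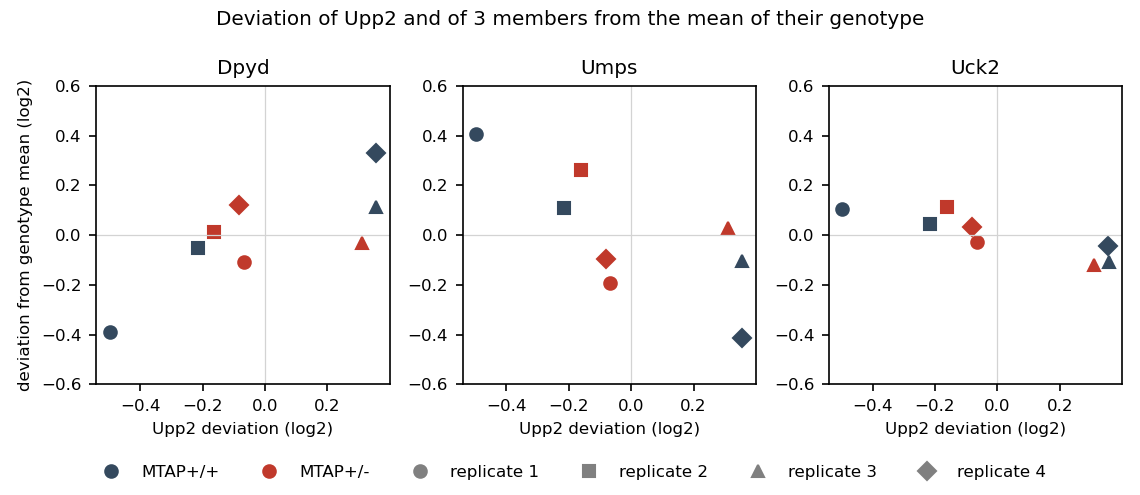
Deviation of Dpyd, Umps and Uck2 (vertical, log2) from the mean of their genotype against that of Upp2 1451548_at (horizontal, log2), 1 point per liver, brightest probe set of each gene. Uck2 varied too little to be among the genes ranked by likeness. Dpyd deviates with Upp2 (r = 0.76) and Umps against it (r = -0.74), with wild-type replicate 1 at 1 end and wild-type replicates 3 and 4 at the other; other probe sets of these genes gave other values (0.08 and 0.59 for Dpyd, -0.49 to 0.36 for Umps).

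The 5 clock genes were listed with earlier results of these data known, so nothing is read from how far their groups stood apart. Over all probe sets the groups were apart at 4.35%. Arntl (1425099_a_at), the gene of the clock activator BMAL1, had groups that did not overlap. It read 4.82, 5.56, 4.98 and 5.93 in MTAP+/- and 7.18, 7.05, 6.82 and 6.28 in MTAP+/+ livers. Its dimmer probe set, 1457740_at, changed by -0.06 with groups that overlapped. Dbp (1438211_s_at), a clock output factor, read 10.40, 9.72, 10.14 and 8.05 against 6.06, 8.08, 6.65 and 8.13. Heterozygous replicate 4 thus lay within the wild-type range of Dbp. Nfil3 (1418932_at), a repressor that binds the D-box, was at 6.08 to 6.85 and 6.89 to 7.83. Per3 (1421087_at) was at 4.31 to 5.12 and 3.82 to 4.01, and Nr1d1, which encodes a REV-ERB repressor, at 6.92 to 7.69 and 6.85 to 7.24. The dimmer Per3 probe sets changed by -0.08 to 0.66, and of these the groups were apart only at 1441445_at. The part of collection time in the Upp2 difference was not tested.

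Other genes of pyrimidine metabolism showed no called change. Of 37 further genes listed for new synthesis, kinases, thymidylate and deoxynucleotide supply, nucleotidases, transport and the steps after beta-alanine, 34 had a probe set of their own. By the brightest probe set of each gene, limma called 0 of the 34, where it called 0.0385% of 18193 genes, and listed 2 of them at an unadjusted p under 0.05, against 9.36% of all genes. Signs were mixed, with 13 higher and 21 lower, a median change of -0.03 and a median over all genes of -0.02. The groups overlapped for all 34, where they stood apart for 4.64% of genes.

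The gene nearest to the threshold was Tk1, thymidine kinase of dividing cells. It read 7.64, 7.72, 7.38 and 7.62 in MTAP+/- and 7.16, 6.75, 7.25 and 7.38 in MTAP+/+ livers, so that heterozygous replicate 3 and wild-type replicate 4 met. The change was 0.45 ± 0.14 (SE, unadjusted p = 0.00861, adjusted p = 0.411 by limma). Among markers of dividing cells, Mki67 was at -0.11, Top2a at -0.19 and Ccna2 at 0.04. Of these, 0 of 3 passed the threshold, where limma called 0.0385% of genes. Their signals were dim, between 3.35 and 5.47, so a difference could be missed. The part of cell division in the Tk1 change was not tested.

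In the synthetic route, Dhodh, the mitochondrial step before Umps, changed by -0.31 ± 0.11 (SE, unadjusted p = 0.0167, adjusted p = 0.474 by limma). Its signals were 5.20, 5.32, 5.23 and 5.37 in MTAP+/- and 5.70, 5.73, 5.32 and 5.61 in MTAP+/+ livers, with wild-type replicate 3 inside the heterozygous range. Its other probe set of like signal, 1417581_at, changed by 0.08 (adjusted p = 0.891 by limma). Cad, which carries the first 3 steps, was at -0.05, and the CTP synthases Ctps and Ctps2 were at -0.20 and 0.12.

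Among the other listed genes of smallest p, Rrm2, a subunit of ribonucleotide reductase, had the largest change and a wide spread (-0.66 ± 0.40, SE). Wild-type replicates 1 and 3 read 7.06 and 7.27, and all other livers 5.05 to 6.38. The nucleotidases Nt5c3, Nt5e, Nt5m and Nt5c3b were at 0.20, 0.20, -0.21 and -0.15. Cmpk1, the UMP and CMP kinase of the cytosol, was at 0.15, the nucleoside transporter Slc29a2 at -0.21, and Aldh6a1, which acts on products of thymine breakdown, at 0.21. Adjusted p-values of all of these were at least 0.710 by limma.

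Over all 77 probe sets of these 34 genes, 7 had an unadjusted p under 0.05 by limma, against 8.41% of all probe sets. The groups were apart at 1 of the 77, against 4.35% of all probe sets. For some genes of this list other probe sets differed from the brightest, and those named next were picked out after their values were seen. For Entpd5, a nucleoside diphosphatase of the secretory pathway, 3 of the 5 other probe sets had an unadjusted p under 0.05. Its brightest probe set changed by -0.09 ± 0.22 (SE), while 1417382_at, 1451765_a_at and 1417383_at changed by -0.33, -0.34 and -0.47, each at an adjusted p of 0.486 to 0.512 by limma. Rrm2b, a subunit of ribonucleotide reductase, was at 0.06 on its brightest probe set and at -0.50 on 1437222_x_at, which is near the lowest signals of the arrays (unadjusted p = 0.0115, adjusted p = 0.436 by limma). Dck, deoxycytidine kinase, was at -0.25 on its brightest and at 0.28 on 1428838_a_at (unadjusted p = 0.0419, adjusted p = 0.572 by limma).

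**Figure D5:**
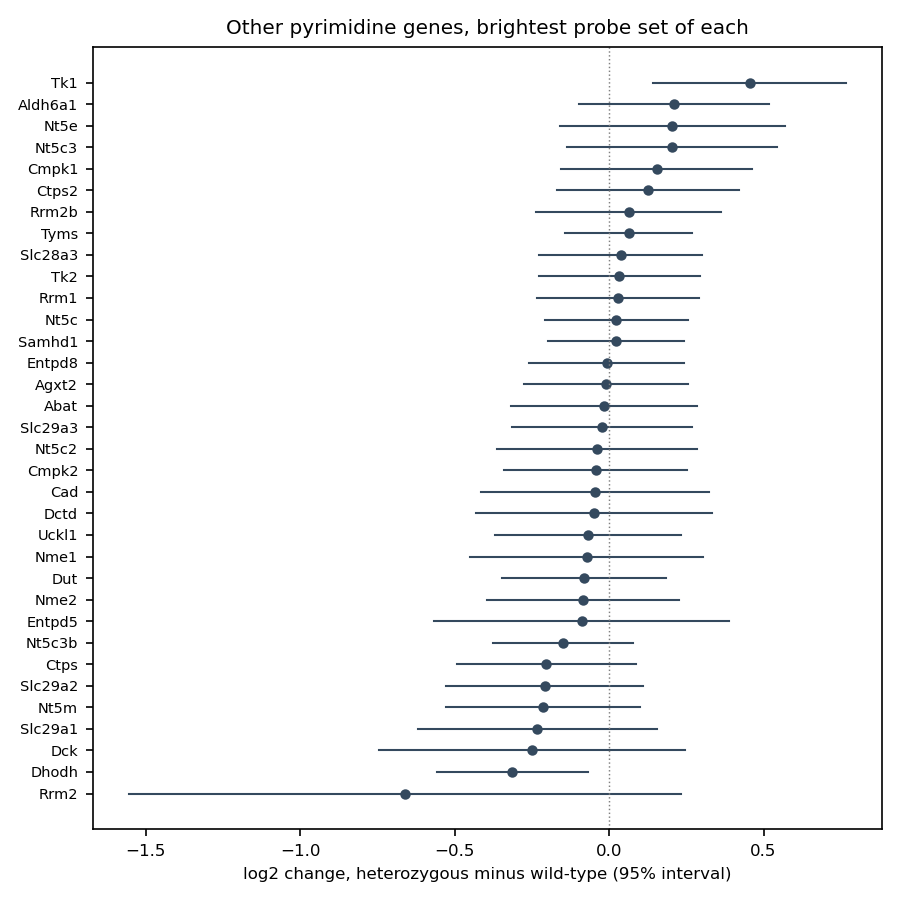
Log2 change (MTAP+/- minus MTAP+/+) of the brightest probe set of 34 further pyrimidine genes with its 95% interval from limma, not adjusted for the number of probe sets, in order of the change. Changes run from -0.66 for Rrm2 to 0.45 for Tk1, and none passed the threshold.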

How the data were processed

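Liver RNA of 8 mice was isolated with TRIzol, biotin-labelled and hybridised to Affymetrix mouse arrays, per the labels' protocols. Per the submitters' processing notes, the authors used RMA to turn probe intensities into the deposited log2 signals, with settings not given in the sources used here. That the scale is log2 follows from the range, 1.64 to 14.72. Depth does not apply to arrays: the number of arrays limits the precision.

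Values were used as deposited. The 64 control probe sets were left out, which left 45037, of which 34945 had 1 gene symbol, 932 several and 9160 none; 34741 were matched by gene ID to RefSeq genes of GRCm38.p6, and 0 symbols changed. Genotypes were compared over all probe sets by a two-sided moderated test in limma 3.58.1 under R 4.3.3 (lmFit, eBayes), adjusted by Benjamini-Hochberg with a threshold of 0.05. A gene's brightest probe set is the one of highest mean over the 8 arrays. On simulated data for this comparison (45037 probe sets, 200 changed, 10 runs) the fit recovered 21.0% of changes of 0.5 log2 units and 80.8% of 1 unit. It recovered 94.2% of 1.5 and 97.6% of 2, and 4.80% of calls were false. The noise was drawn separately for each probe set and array. Real arrays share variation across probe sets, so these rates may not hold for them. The 3' minus 5' signal of control probe sets, a sign of RNA integrity, was 1.005 ± 0.195 (SD, n = 4) in MTAP+/- and 0.960 ± 0.066 (SD, n = 4) in MTAP+/+ arrays (exact permutation p = 0.743 two-sided over 70 assignments, where 0.0286 is the smallest possible).

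The members, lists and tests were chosen with earlier results of these data known. Named are all members, Mtap, up to 6 further pyrimidine genes of smallest p in each direction, the 6 genes most like and 4 least like Upp2, and 5 clock genes. Some other genes are named as parts of lists (markers, Cad), and Entpd5, Rrm2b and Dck were named after their values were seen. Promoter sequences are from RefSeq, which gave 13 windows for 9 of the 10 members. Alternatives were leaving out each array, a block for the replicate number, array weights, a trended and robust eBayes, centring, quantile normalisation applied again, leaving out dim probe sets (mean under 5) or those of cross-hybridising kinds, and 1 probe set per gene. Leaving out 2 arrays together was added after the data were seen, and both had scored with the other genotype on the first component.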

Additional observations from a re-analysis of the deposited data

Results flagged for a closer look

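In groups of 4 livers, 1 liver was set apart when its gap to the nearest other, as a share of the group's range, exceeded Dixon's critical value. This held for 9 of 88 groups over the 44 probe sets examined, where chance gives about 4.4, and none concerned Upp2, Upp1, Uck1, Cda, Upb1 or Umps. Among members, heterozygous replicate 4 was low on Uck2 1457980_x_at (4.12, others 4.34 to 4.37) and high on Dpyd 1443717_at (2.65, others 2.26 to 2.29). Heterozygous replicate 3 was low on Uck2 1417137_at (3.01, others 3.22 to 3.26). Heterozygous replicate 2 was low on Dpys 1425689_at (5.54, others 6.54 to 6.66). Among further pyrimidine genes, heterozygous replicate 2 was low on Nt5c3 (7.31, others 7.86 to 7.88), heterozygous replicate 3 low on Nt5e (5.27, others 5.76 to 5.78), and wild-type replicate 1 high on Nt5m (7.21, others 6.77 to 6.84). Heterozygous replicate 4 was high on Nfil3 1418932_at (6.85, others 6.08 to 6.21) and low on Per3 1421087_at (4.31, others 5.04 to 5.12). Several probe sets were examined for some genes, so these are not independent.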

How the results depend on the processing

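The log2 change of Upp2 1451548_at ranged from 1.46 to 1.80 over the 17 alternatives (1.46 to 1.74 with 1 array left out). Leaving out 1 of 4 arrays can move a group mean by only part of its spread. Upp2 was also chosen on this contrast, so the range is a description and not a check. Some of the alternatives cannot move the change and gave 1.62 again. They are the replicate block, the trended and robust eBayes, and the settings that leave out other probe sets. That of 1424969_s_at was 1.42 to 1.79 and that of 1460059_at 0.61 to 1.004. The counts of other members and of further pyrimidine genes past the threshold were 0 under every alternative. Over all probe sets the count of 16 became 25 with the replicate block, 9 with dim probe sets left out, 9 with 1 probe set per gene, 5 to 21 with 1 array left out (5, 7 without heterozygous replicates 1 and 3, and 7, 9 and 6 without wild-type replicates 1, 2 and 3) and 430 without heterozygous replicate 2 and wild-type replicate 4; the first of these sets the 4 label numbers as pairs, although 2 of 4 pairs had correlated deviations over 0.1 (-0.07, 0.22, 0.005 and 0.23) and 4 of 8 livers correlated best with their own number, so the numbers were not taken as pairs. With the replicate block the smallest adjusted p of another member was 0.151. The count of other member probe sets with groups apart was 1 to 4 with 1 array left out (2 without heterozygous replicate 3 or 4 or wild-type replicate 2, where 7.18%, 7.09% and 8.33% of all probe sets were apart, and 4 without wild-type replicate 4) and 5 without both named arrays. The difference in 3' minus 5' control signal was 0.031 for Actb and 0.059 for Gapdh alone.

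Small changes that did not pass turned sign when 1 array was left out. Over the settings without 1 array or both named arrays, Upp1 ranged from -0.025 (without heterozygous replicate 1) to 0.23, Cda from -0.24 to 0.052 (without heterozygous replicate 3), and Dpyd 1443717_at from -0.056 (without heterozygous replicate 4) to 0.081. Dpys 1425689_at ranged from -0.047 to 0.52 and was below 0 without heterozygous replicate 1, 3 or 4 or wild-type replicate 1 or 2. Umps 1434859_at ranged from -0.16 to 0.022 and was above 0 without heterozygous replicate 1 or 4 or wild-type replicate 1, Umps 1431652_at from -0.17 to 0.0022 (without wild-type replicate 1), and Ctps2 from -0.011 (without wild-type replicate 2) to 0.198. The cause was not tested. With 4 arrays a group, the fit missed most changes of 0.5 log2 units in the simulated data.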
